A study of Mus musculus with 2 samples.

Results

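Microglia are the resident macrophages of the brain parenchyma. In the hippocampal nuclei examined here they were picked by their own transcripts: a nucleus counted as a microglia nucleus when its raw counts of Csf1r, Siglech, Inpp5d, Ikzf1 and Ly86 summed to at least 3 unique molecular identifiers (UMIs, each standing for 1 captured transcript). It also had to carry at most 1 UMI of the neuronal gene Rbfox3, none of Slc17a7, Gad1 or Gad2, and at most 1 each of the oligodendrocyte pair Mobp and Mog and of the astrocyte pair Gja1 and Aqp4. This rule found 357 microglia nuclei among the 13635 nuclei in which 500 genes or more were detected and mitochondrial transcripts made up no more than 5% of UMIs. Of these, 199 of 7211 came from a CAPZA2+/- (heterozygous knockout) mouse hippocampus and 158 of 6424 from a wild-type one.

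The study compared the makeup of cell populations between these genotypes. Nuclear RNA was read near the 3′ end of transcripts in droplets, with 1 library per genotype and no treatment. The sources used here do not give the age, the sex, the number of animals pooled or the part of Capza2 that was deleted. With 1 library per genotype, the spread between mice cannot be estimated, so no test between genotypes and no p-value is given. The 95% intervals below cover counting error only, and an interval on UMIs says nothing of how nuclei vary among themselves.

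Microglia arise from yolk sac progenitors and depend on the CSF1 receptor, which Csf1r encodes, for survival. TGF-beta signalling and transcription factors such as PU.1, the product of Spi1, and Mef2 proteins maintain their resting programme of fractalkine and purine receptors, complement and phagocytic genes. Their processes survey the tissue and engulf debris and synapses through constant rebuilding of actin filaments. Capping protein, to which Capza2 contributes an alpha subunit, binds the barbed ends of those filaments and stops their growth.

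The microglia nuclei were the shallowest of the glial classes examined. Their median was 1505 UMIs and 1113 genes in the heterozygote library and 1530.5 UMIs and 1115.5 genes in the wild-type library. Over all kept nuclei the medians were 6080 and 6893.5 UMIs. Oligodendrocyte nuclei chosen by a like rule (at least 3 UMIs of Mobp and Mog) had medians of 1996 and 2092 UMIs, and astrocyte nuclei (at least 3 UMIs of Gja1 and Aqp4) had 2832 and 2978.5. In sum, the microglia nuclei held 320738 UMIs in the heterozygote and 261755 in the wild type, of 62384065 and 58653206 in all kept nuclei. Mitochondrial UMIs made up 0.166% and 0.188% of these sums. The 2 libraries had 13 barcode sequences in common, and none of them belonged to a microglia nucleus in either.

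The label was checked against microglial genes that the rule did not use. The fractalkine receptor gene Cx3cr1 had a UMI in 80.9% of heterozygote and 74.7% of wild-type microglia nuclei. The purine receptor gene P2ry12 was found in 79.4% and 79.1%, and Dock8, an activator of the small GTPase CDC42 in leukocytes, in 73.9% and 77.8%. The orphan receptor gene Gpr34 was found in 69.8% and 62.0%, and Selplg, the gene of a selectin ligand, in 61.3% and 57.6%. Tmem119, a gene used to set microglia apart from other macrophages, had a UMI in 23.1% and 22.8%, and P2ry13 in 14.6% and 13.3%. In oligodendrocyte nuclei, which should lack these transcripts and were deeper, the shares were 4.99% and 2.02% for Cx3cr1, 0.208% and 0.288% for Dock8 and 0.416% and 0.288% for Tmem119. The highest such share was that of P2ry12 in astrocyte nuclei, 13.6% and 15.2%. Both glial classes were chosen with at most 1 UMI of the rule genes, so low shares there are in part set by that choice. Of these 6 surface protein genes (Dock8 left out), at least 3 were found together in 152 of 199 and 113 of 158 microglia nuclei. By these genes the nuclei of both libraries carried microglial transcripts, save for a few nuclei described below.

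**Figure D1:**
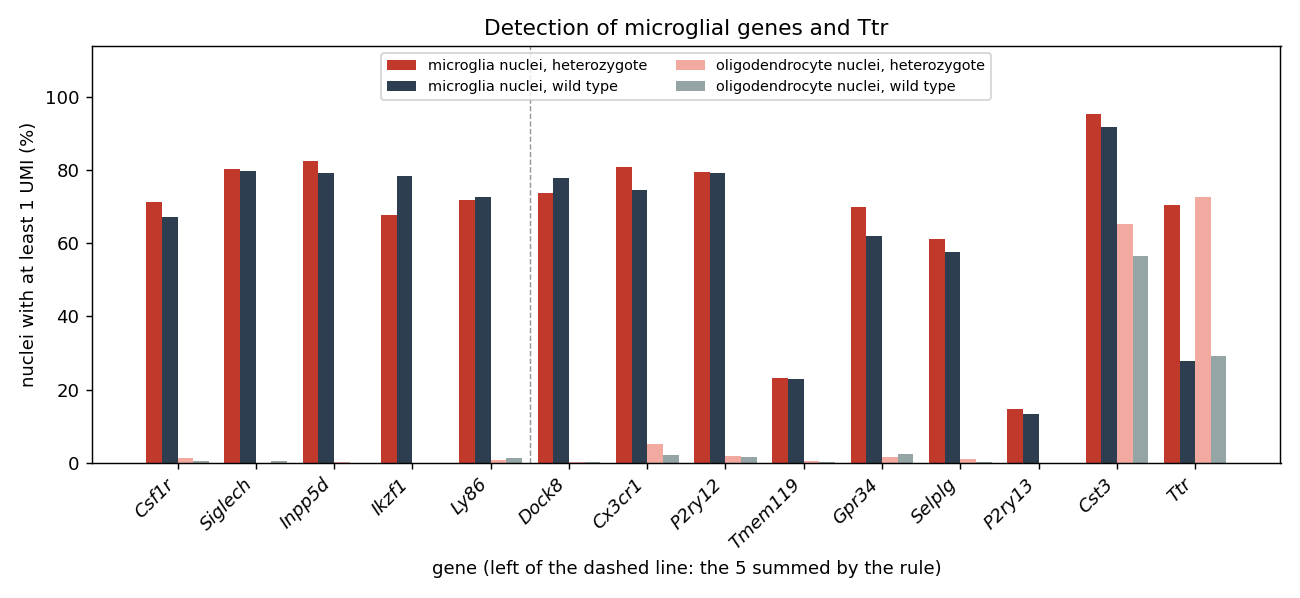
Percentage of nuclei with at least 1 UMI of each gene, in microglia nuclei (199 heterozygote, 158 wild type) and oligodendrocyte nuclei (481 and 347). The 5 genes left of the dashed line chose the microglia nuclei and were limited to 1 UMI in sum in the oligodendrocyte nuclei. Cx3cr1 stands at 80.9% and 74.7% of microglia nuclei, while Ttr stands at 70.4% and 27.8% of microglia nuclei and at 72.6% and 29.1% of oligodendrocyte nuclei.

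The threshold cut through few nuclei. The sum over the 5 rule genes had a median of 7 UMIs in the heterozygote and 8 in the wild type, and reached 24 and 25. It stood at exactly 3 in 14 and 16 microglia nuclei. Just outside, 10 and 4 nuclei passed every other clause with a sum of 2. Cx3cr1, P2ry12 and Gpr34 together gave 3.93 and 2.75 UMIs per nucleus just inside, 2.5 and 1.5 just outside, and 5.51 and 5.08 over all microglia nuclei.

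The clauses against neuronal and other glial genes took out nearly as many nuclei as they left in. Of the nuclei with a marker sum of at least 3, they excluded 177 of 376 (47.1%) in the heterozygote and 119 of 277 (43.0%) in the wild type. The excluded nuclei carried as many microglial transcripts as the members, with 5.83 and 5.84 UMIs per nucleus of the same 3 genes. They were deeper, with medians of 1955 and 2491 UMIs. They also carried neuronal transcripts: Meg3 gave 29.99 and 51.7 UMIs per excluded nucleus against 0.467 and 0.380 per member, and the synaptotagmin gene Syt1 gave 22.9 and 32.0 against 0.980 and 1.01. A UMI of Slc17a7, the vesicular glutamate transporter gene, was the sole ground for 60 and 48 exclusions, and Gad1 or Gad2 for 34 and 18. Among nuclei with the highest simulated-doublet scores at the expected doublet rate were 51 and 33 of the excluded and 4 and 3 of the members. Results below are for the members unless the excluded nuclei are named.

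Microglia nuclei made up 2.76% of heterozygote nuclei (exact 95% interval 2.39 to 3.16) and 2.46% of wild-type nuclei (2.09 to 2.87). The ratio of these shares was 1.12 (0.906 to 1.39), an interval for counting error alone that holds 1. Over 10 other settings of the rule or the nuclei the ratio ran from 1.12 to 1.26. Its interval left out 1 in a single setting, the marker sum alone with no exclusion clause, where the shares were 5.21% (4.71 to 5.75) and 4.31% (3.83 to 4.84) and the ratio 1.21 (1.03 to 1.42). Other glia had ratios on the same side: 1.23 (1.07 to 1.42) for oligodendrocyte nuclei, at 6.67% and 5.40%, and 1.11 (0.862 to 1.44) for astrocyte nuclei, at 1.94% and 1.74%. Counted among these 3 glial classes, microglia were 24.3% (21.4 to 27.4) in the heterozygote and 25.6% (22.2 to 29.2) in the wild type.

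**Figure D2:**
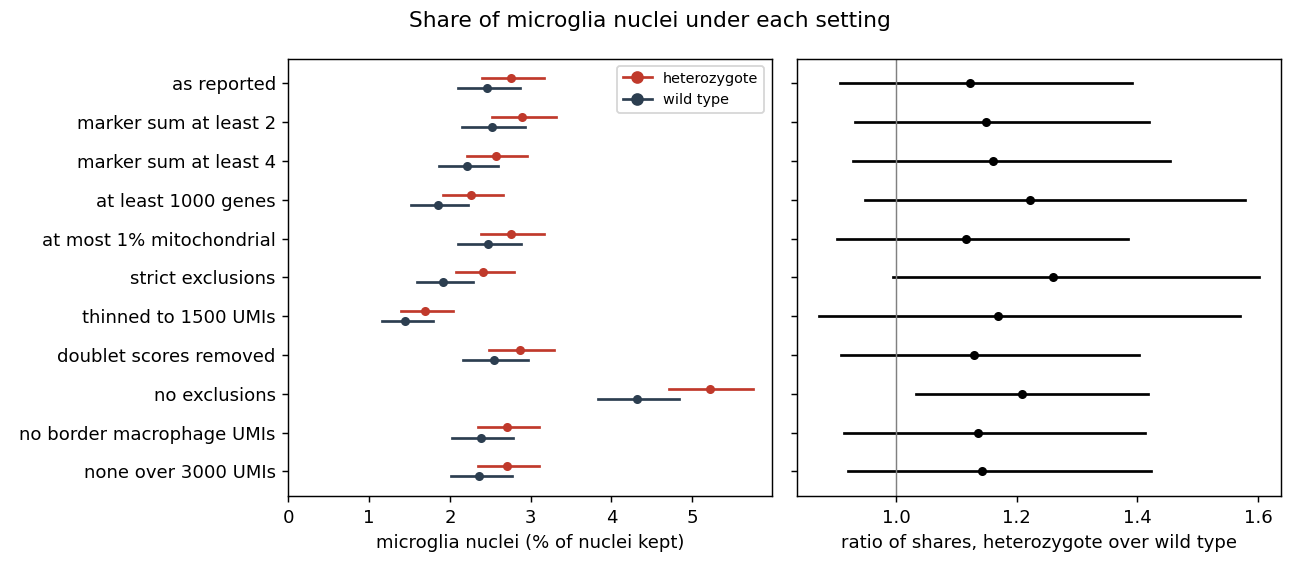
Left, microglia nuclei as a percentage of nuclei kept in the heterozygote and wild-type libraries, with exact 95% intervals, under the rule as reported and 10 other settings. Right, the ratio of the 2 shares with its exact 95% interval. The ratio lies between 1.12 and 1.26 throughout, and its interval leaves out 1 with no exclusions alone.

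Set against the other kept nuclei of the same library, the microglia nuclei were led by genes known from leukocytes. Of 1012 genes with at least 50 UMIs in the microglia nuclei of each library, 283 (28.0%) were at least 4-fold higher in both libraries by CPM (UMIs of a gene scaled to the same total in every library and class), and 35 (3.46%) were at least 4-fold lower. These nuclei were chosen by their transcripts, so the contrast is a description. The genes named next are 24 of the 25 that led it by the lower of their 2 log2 ratios, the 5 rule genes left out. Cd86, the gene of a T cell costimulatory ligand, came first at 306 CPM against 0.967 in other heterozygote nuclei and 294 against 1.11 in other wild-type nuclei, log2 ratios of 8.30 and 8.05. Cell surface receptors among the 25 were Itgam, the alpha chain of complement receptor 3 (7.47 and 8.27), Csf3r, the G-CSF receptor (7.61 and 7.91), Ptprc, the pan-leukocyte phosphatase CD45 (7.09 and 7.52), Havcr2, the gene of TIM-3 (7.26 and 7.88), Cd33, Selplg and Fcrls. Transcription factors were Runx1 (7.50 and 7.99) and Fli1 (7.17 and 7.74).

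Among the other leading genes were 5 whose products act on the actin skeleton of leukocytes, grouped here after their values were seen. Dock8 stood at 970 and 1028 CPM in microglia nuclei against 5.75 and 4.38 in other nuclei. Nckap1l, the haematopoietic subunit of the WAVE actin-nucleating complex, had log2 ratios of 7.43 and 7.89, the CDC42 activator gene Fgd2 7.25 and 7.72, the GTPase-activating gene Arhgap45 7.67 and 7.70, and the myosin gene Myo1f 7.14 and 7.38. The rest were the signalling adaptors Pik3ap1 and Lcp2, the membrane-shaping Bin2, the annexin Anxa3, Adap2, the transporter Slco2b1, hexokinase Hk2, and the lysosomal genes Laptm5 and Ctsh, with lower values between 7.11 and 7.64. The excluded nuclei count among the other nuclei here. Left out of them, the log2 ratios of Cd86 were 10.09 and 9.64 and those of Dock8 9.49 and 9.61.

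PU.1, an ETS-family factor, drives many macrophage genes from sites close to the transcription start, so the promoters of the leading genes were searched for its letters GAGGAAGT on both strands. RefSeq promoter windows (GRCm38.p6, 250 bases before the start site and 50 from it on) matched 17 of the 25 genes. The letters occurred in 3 of the 17 genes, Slco2b1, Havcr2 and Fgd2, against 3.69% of all 27025 genes with a window. The letters of the ETS-IRF composite element, GGAA and GAAA set 2 bases apart, occurred in 0 of the 17, against 3.16% of all genes. The 2 patterns can overlap in their GGAA core. The 3 windows are shown down to 30 bases from the start site on, 5′ to 3′ along the gene, because in each the match lay at the start site; capitals mark it.
Slco2b1, chr7:99711311-99711590, minus strand: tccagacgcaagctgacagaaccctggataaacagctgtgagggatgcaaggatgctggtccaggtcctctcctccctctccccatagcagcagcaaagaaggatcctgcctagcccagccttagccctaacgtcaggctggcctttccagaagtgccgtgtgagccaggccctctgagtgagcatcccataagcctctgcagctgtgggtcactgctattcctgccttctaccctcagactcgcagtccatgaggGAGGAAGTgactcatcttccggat
Havcr2, chr11:46454681-46454960, plus strand: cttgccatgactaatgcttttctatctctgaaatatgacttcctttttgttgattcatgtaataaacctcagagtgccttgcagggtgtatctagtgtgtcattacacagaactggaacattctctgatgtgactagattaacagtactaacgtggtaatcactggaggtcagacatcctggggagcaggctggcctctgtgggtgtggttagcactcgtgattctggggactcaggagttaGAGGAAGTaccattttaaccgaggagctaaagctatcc
Fgd2, chr17:29360664-29360943, plus strand: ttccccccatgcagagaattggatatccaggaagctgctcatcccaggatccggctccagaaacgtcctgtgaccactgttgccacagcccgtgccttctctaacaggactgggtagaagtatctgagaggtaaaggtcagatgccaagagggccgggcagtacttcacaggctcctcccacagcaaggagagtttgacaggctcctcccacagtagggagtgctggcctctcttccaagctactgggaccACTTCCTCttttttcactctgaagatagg
Positions are counted from 1 at the 5′ end, and base 251 is the start site. The match took bases 257 to 264 in Slco2b1, 243 to 250 in Havcr2 and, read on the opposite strand, 252 to 259 in Fgd2. Slco2b1 (159 and 131 UMIs), Havcr2 (95 and 76 UMIs) and Fgd2 (112 and 101 UMIs) were found in 58.8% and 48.1%, 37.7% and 34.8%, and 38.2% and 48.1% of microglia nuclei. A match of letters is a description and not a measured binding site.

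By gene group, the lists of known microglial function were high in microglia nuclei. All 19 homeostatic surface and secreted genes over the count minimum were at least 4-fold higher in both libraries than in other nuclei, with median log2 ratios of 6.53 and 6.68. The same held for 5 of 5 complement genes (6.67 and 7.05), 14 of 15 phagocytosis and ITAM signalling genes (5.07 and 5.00), 9 of 11 lysosomal genes (4.15 and 4.53), 11 of 14 lineage transcription factors (3.63 and 3.70) and 16 of 24 haematopoietic actin regulators (4.00 and 4.03). It held for 1 of 15 nuclear-encoded respiratory chain genes (1.65 and 1.75). Over all 1012 genes the medians were 1.39 and 1.44, and 28.0% passed. The rule genes Siglech, Inpp5d and Ikzf1 count among the homeostatic, phagocytosis and lineage genes here, and their excess is set by the rule. The nuclei were chosen by their transcripts, so these counts are a description. Of 5 general neuron markers 4 were over the minimum and 3 of them at least 4-fold lower in both libraries. The rule excluded nuclei by neuronal genes, so low neuronal levels are in part set by it. Markers of other classes over the minimum did not all stand low: the 1 oligodendrocyte marker had log2 ratios of -0.21 and 0.44, the 1 astrocyte marker 0.77 and 1.17, and the choroid plexus marker Ttr 2.19 and 2.18.

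In absolute level the nuclei were led by the nuclear-retained RNA Malat1, at 36254 and 37367 CPM. Csmd3, which encodes a large membrane protein with complement-control domains, followed at 7283 and 7744 CPM, then the plexin-domain gene Plxdc2 at 4989 and 5173. Other abundant genes were the engulfment adaptor Elmo1 (2968 and 2911), the sodium-calcium exchanger gene Slc8a1 (2781 and 3137), the cysteine protease inhibitor gene Cst3 (3292 and 2613), the actin monomer binder Tmsb4x (2588 and 2288), and the transcription factor genes Mef2c (2357 and 2460) and Mef2a (2519 and 2048). These are counts per gene near the 3′ end, not levels per length, so their order is one of counts. Csmd3 was 4.01- and 4.49-fold above other nuclei.

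Markers of other immune cells were at or near 0 in the microglia nuclei. All 4 neutrophil genes (S100a8, S100a9, Retnlg, Ngp) had 0 UMIs in both libraries. The 5 monocyte genes had 1 and 3 UMIs in sum, with Ly6c2, Chil3 and S100a4 at 0. The 7 T or NK cell genes had 5 and 2 UMIs, with Cd3e, Cd3g, Cd247, Nkg7 and Trbc2 at 0. The B cell list gave 130 and 69 UMIs, of which Bank1 gave 130 and 67, while the defining genes Cd79a and Ms4a1 were at 0. Endothelial genes gave 12 and 20 UMIs, with Cldn5, Ptprb and Mecom at 0. Mural genes gave 1 and 3, fibroblast genes 13 and 3, red cell genes 20 and 17 and choroid plexus genes 300 and 64, of which Ttr was 284 and 60. The 20 microglia markers gave 6613 and 5247 UMIs, or 2.06% and 2.005% of the total, against 0.0237% and 0.0211% in oligodendrocyte nuclei. Among the 20 are the 5 rule genes, on which both classes were chosen, so this contrast is in part set by the rules. Inhibitory neuron markers gave 37 and 46 UMIs, oligodendrocyte markers 210 and 176, and astrocyte markers 130 and 124. The rule held Gad1 and Gad2 at 0 and capped Mobp, Mog, Gja1 and Aqp4, so these sums are in part set by it. Of the Y-linked genes, Uty had 78 and 50 UMIs and Ddx3y 47 and 27, and Xist had 0 in both.

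Microglia nuclei differed most among themselves in genes of border macrophages, the macrophages of meninges and vessel walls. Each nucleus was thinned to 1000 UMIs (185 and 150 nuclei) and genes were ranked by the variance over the mean of their UMIs, which is near 1 for random counting, in the library where it was lower. The median over 3791 genes was 1.06 and 1.05. Mrc1, the mannose receptor gene, had 7.70 and 5.37, F13a1, a coagulation factor subunit gene, 6.19 and 4.56, and Dab2, a clathrin adaptor gene, 3.72 and 4.78. Mrc1 was found in 3 and 4 of the thinned nuclei and F13a1 in 3 and 3.

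In raw counts, 4 heterozygote and 5 wild-type nuclei carried at least 3 UMIs of 10 border macrophage genes. These are shares of 2.01% (0.550 to 5.07) and 3.16% (1.04 to 7.23). A set of 6 of them, 3 per library, stood apart: they held 68, 22 and 19 such UMIs in the heterozygote and 24, 21 and 6 in the wild type. Each of the 6 carried F13a1 and Mrc1, and each had at most 1 UMI of Cx3cr1 and Gpr34 together. P2ry12 was not low in all of them: it had 4, 3 and 3 UMIs in the heterozygote nuclei and 0, 2 and 0 in the wild-type ones. The next nuclei had 3 border macrophage UMIs, and each of those carried at least 3 UMIs of Gpr34. Many nuclei without border macrophage UMIs also had few UMIs of Cx3cr1 and Gpr34, so a low count of these alone does not set a nucleus apart. Graph clustering of the microglia nuclei also set these 6 apart, with 96 UMIs of Apoe, 43 of Rbpj and 33 of P2rx7 in them, next to groups of 265 (142 and 123) and 86 (54 and 32). The group of 86 had 0.364% of its UMIs in excitatory neuron markers against 0.140% in the group of 265, and 1.65% against 2.19% in microglia markers. Its leading genes against the other microglia nuclei rested on few nuclei. Among them were the oligodendrocyte precursor markers Tnr (log2 ratio 4.93, in 9 nuclei) and Lhfpl3 (4.92, in 5), and Adarb2 (4.16, in 11). The 6 are border macrophage-like by the genes of the border macrophage list, of which Lyve1 and Folr2 were at 0. Each also carried 3 or more UMIs of the 5 rule genes, so the rule kept them.

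**Figure D3:**
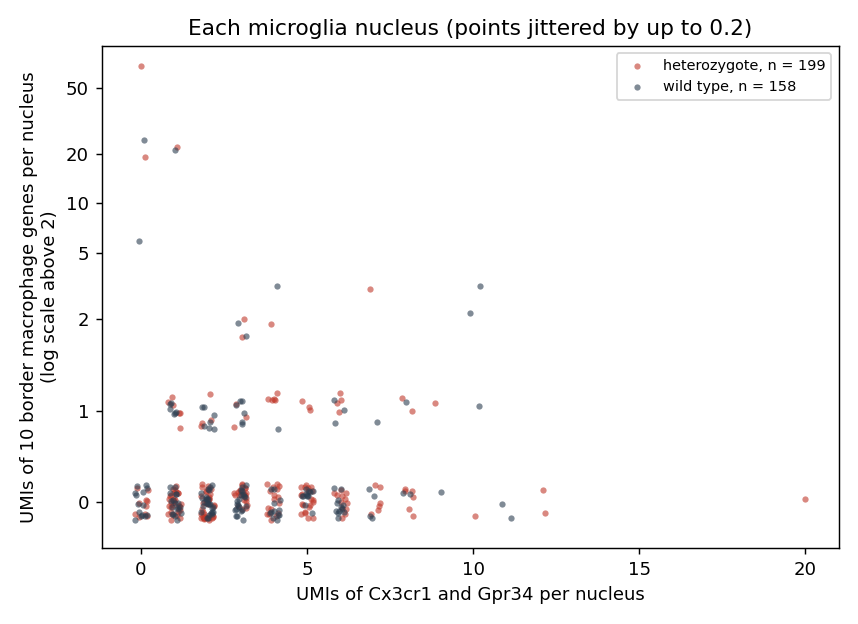
Each point is 1 microglia nucleus, red for the heterozygote (n = 199) and dark for the wild type (n = 158). The x axis is its UMIs of Cx3cr1 and Gpr34, and the y axis its UMIs of 10 border macrophage genes, log-scaled above 2. The 6 nuclei with 6 to 68 border macrophage UMIs have at most 1 UMI of Cx3cr1 and Gpr34; P2ry12, not plotted, had 2 to 4 UMIs in 4 of them.

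Among the 12 most variable genes were also the neuronal Kcnip4 (4.45 and 4.19), Nrxn3 (4.95 and 3.68), Lrrtm4 (3.55 and 4.86), Nkain2 (10.7 and 2.45) and Cadm2 (2.32 and 3.10). Kcnip4 was found in 45 of 185 and 46 of 150 thinned nuclei, Cadm2 in 25 and 44 and Nrxn3 in 29 and 19. Excitatory neuron markers had a UMI in 176 of 199 and 138 of 158 microglia nuclei with a median of 2 UMIs in each library. The highest counts lay in single deep nuclei: 1 heterozygote nucleus of 7831 UMIs held 111 of the 625 UMIs of excitatory neuron markers, and another of 5144 UMIs held 149 of the 636 of general neuron markers. In the wild type, 1 nucleus of 3023 UMIs held 41 of the 75 UMIs of oligodendrocyte precursor markers. Microglia nuclei with more than 3000 UMIs numbered 4 and 6. The remaining variable genes were Apoe, an apolipoprotein gene (3.14 and 8.33, with up to 28 UMIs in 1 thinned wild-type nucleus), the phosphodiesterase gene Pde4b (3.07 and 2.47), Malat1 (2.91 and 3.30) and Csmd3. Csmd3 varied around a high mean: 7.57 and 7.87 UMIs per thinned nucleus, a dispersion of 2.33 and 2.80, and a UMI in 179 of 185 and 144 of 150 nuclei.

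Capza2 itself (chr6:17636234-17666972, plus strand, mm10) did not differ beyond counting error between the libraries in microglia nuclei. It had 118 UMIs in the heterozygote and 102 in the wild type, or 368 and 390 CPM, and was found in 40.7% and 43.7% of the nuclei. The log2 ratio, heterozygote over wild type, was -0.08 (-0.48 to 0.31). This interval leaves out -1, the log2 ratio of a level lowered 2-fold. In oligodendrocyte nuclei Capza2 had 96 and 132 UMIs, a log2 ratio of -0.92, and in astrocyte nuclei 50 and 53, a ratio of -0.32. Whether the classes differ was not tested. In the nuclei that the clauses excluded, Capza2 gave 0.780 and 1.01 UMIs per nucleus, a log2 ratio per nucleus of -0.37 (-0.73 to -0.01). Values for excluded nuclei, here and below, are per nucleus and not scaled to total UMIs, and the wild-type excluded nuclei were the deeper. Where in Capza2 the deletion lies is not given, so a 3′ count may not see it. The other alpha subunit, Capza1, had 44 and 46 UMIs (-0.36, -0.99 to 0.27) and the beta subunit, Capzb, 60 and 42 (0.22, -0.37 to 0.83). Of 18 genes of capping protein and its regulators, 4 had at least 100 UMIs, 3 higher and 1 lower, with a median of 0.25. Among them were the adaptor genes Sh3kbp1 (172 and 115 UMIs, 0.29) and Cd2ap (93 and 62 UMIs, 0.29).

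Among the genes over the count minimum, ratios between the genotypes lay on both sides of 0. Of 1253 genes that had 100 UMIs or more in the microglia nuclei of both libraries together, 616 were higher and 637 lower in the heterozygote, with a median log2 ratio of -0.01. CPM scales each library to its own total, so a median near 0 is in part set by the scaling. At least 1.5-fold higher were 36 (2.87%), and at least 1.5-fold lower were 31 (2.47%). Named below are the 12 highest and 11 of the 12 lowest, ranked by the interval bound nearest to 0. Values are log2 ratios of CPM with the wild type as the base, and UMIs of the heterozygote stand before those of the wild type.

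**Figure D4:**
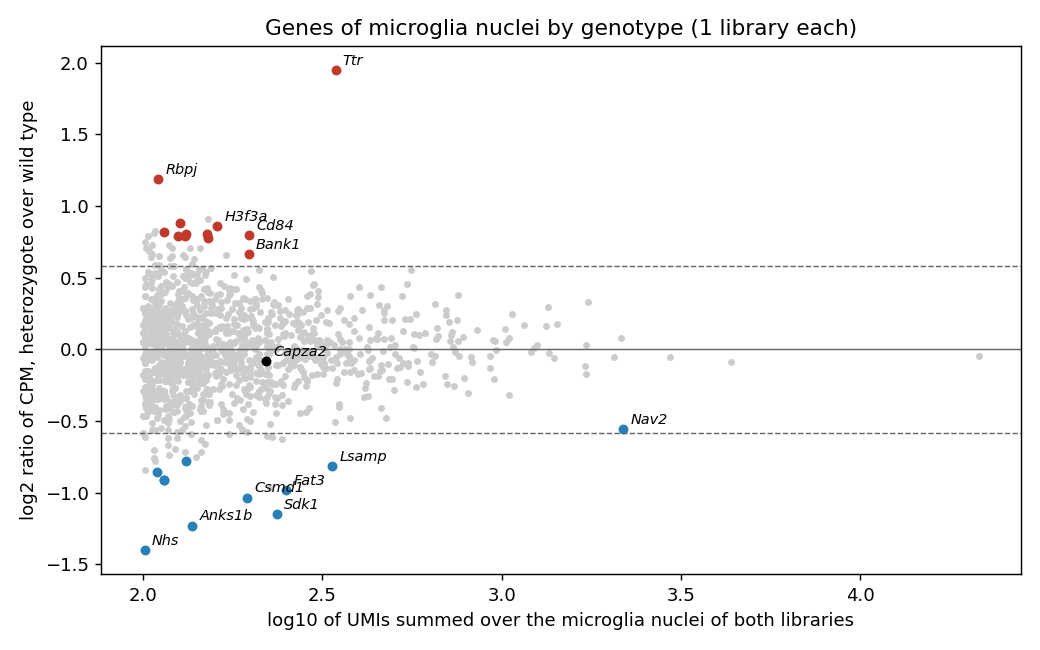
Each point is 1 of the 1253 genes over the minimum of 100 UMIs in microglia nuclei. The x axis is the log10 of its summed UMIs and the y axis its log2 ratio between the heterozygote and the wild type (CPM). Dashed lines mark 1.5-fold, red and blue points the named genes, and the black point Capza2 at -0.08. Ttr stands at 1.95, and Nav2, with 994 and 1192 UMIs, at -0.56.

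Ttr had the highest ratio and was not particular to microglia nuclei. It encodes transthyretin, a thyroid hormone carrier secreted by choroid plexus. It had 284 and 60 UMIs, 885 and 229 CPM, a log2 ratio of 1.95 (1.54 to 2.38). Microglia nuclei carried 1.43 and 0.380 Ttr UMIs each, and oligodendrocyte nuclei 1.46 and 0.372. The share of nuclei with a UMI was 70.4% and 27.8% of microglia, 72.6% and 29.1% of oligodendrocyte and 77.1% and 31.2% of astrocyte nuclei. These shares were close to those of oligodendrocyte nuclei. Whether they come from RNA of other cells or from expression in microglia was not tested. The excluded nuclei, at 3.11 and 0.521 UMIs, had a log2 ratio per nucleus of 2.58.

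Other genes higher in the heterozygote included 2 that were at or near 0 in the oligodendrocyte and astrocyte nuclei, which were chosen with few UMIs of the rule genes. Cd84, the gene of a self-binding SLAM-family receptor of leukocytes (chr1:171839697-171890718, plus strand), had 134 and 63 UMIs, a log2 ratio of 0.80 (0.35 to 1.25). It was found in 44.7% and 26.6% of microglia nuclei and had 0 UMIs in oligodendrocyte and astrocyte nuclei of both libraries. The excluded nuclei held 0.638 and 0.655 Cd84 UMIs per nucleus, a log2 ratio of -0.04 (-0.47 to 0.40). Members held 0.673 and 0.399 per nucleus. Values per nucleus are not scaled to depth, and the wild-type excluded nuclei were the deeper. Bank1, which encodes a signalling adaptor known from B cells (chr3:136053363-136326066, minus strand), had 130 and 67 UMIs, 0.66 (0.23 to 1.11). It was found in 39.7% and 29.1% of microglia nuclei and in 0.416% and 0% of oligodendrocyte nuclei. In the excluded nuclei Bank1 was also higher, at 0.576 and 0.336 UMIs per nucleus, 0.78 (0.24 to 1.34). The excluded nuclei come from the same 2 libraries and are no replicate of the genotype.

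Rbpj, also among the higher genes, rested on few nuclei. This gene encodes the DNA-binding partner of Notch and had 81 and 29 UMIs (1.19, 0.56 to 1.85), of which 21 lay in 1 heterozygote nucleus. Without the nuclei that carried border macrophage genes its log2 ratio was 0.53, and per excluded nucleus it was -0.46 (-0.98 to 0.05). The other 8 higher genes also had UMIs in oligodendrocyte and astrocyte nuclei, and their ratios in microglia nuclei lay between 0.78 and 0.88. They were H3f3a (histone H3.3), Ndufs5 and Atp5l (subunits of respiratory complex I and of ATP synthase), the splicing factor gene Srsf11, Prrc2c, the sterol-binding protein gene Osbpl9, Pcmtd1 and the SNARE regulator gene Cplx2. In oligodendrocyte nuclei these 8 were also higher in the heterozygote, by 0.06 (Pcmtd1) to 0.62 (H3f3a). In astrocyte nuclei 4 of them were lower, H3f3a (-0.23), Srsf11 (-0.09), Prrc2c (-0.32) and Osbpl9 (-0.14). Per excluded nucleus, not scaled to depth, the 8 ratios lay between -0.49 (Pcmtd1) and 0.04 (Cplx2). The share of microglia nuclei with Cplx2, 31.7% and 20.9%, was near that of oligodendrocyte nuclei, 26.6% and 20.2%.

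Genes lower in the heterozygote included 4 that were found in far more microglia nuclei than oligodendrocyte nuclei, though for Fat3 not in more than astrocyte nuclei. Nav2, a neuron navigator gene whose product binds microtubules (chr7:48908716-49610090, plus strand), was the most abundant. It had 994 and 1192 UMIs, or 4.99 and 7.54 per nucleus and 3099 and 4554 CPM, a log2 ratio of -0.56 (-0.68 to -0.43). It was found in 92.0% and 97.5% of microglia nuclei. Over 11 alternative settings its ratio ran from -0.66 to -0.54. In oligodendrocyte nuclei, with 23.7% and 25.4% of nuclei, the ratio was -0.06. The excluded nuclei held 7.84 and 9.83 Nav2 UMIs each, a log2 ratio per nucleus of -0.33 (-0.44 to -0.21), among neuronal transcripts that were also fewer in the heterozygote.

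Nhs, the Nance-Horan gene, whose product carries a WAVE homology domain and acts at the edge of the actin network, had the lowest ratio. It lies at chrX:161833296-162159730 (minus strand) and had 32 and 69 UMIs, -1.40 (-2.05 to -0.78). It was found in 8.54% and 21.5% of microglia nuclei and in 1.04% and 1.44% of oligodendrocyte nuclei. Sdk1, an adhesion gene of the immunoglobulin superfamily (chr5:141241490-142215586, plus strand), had 84 and 152 UMIs, -1.15 (-1.55 to -0.75). It was found in 25.6% and 41.8% of microglia nuclei, and in 0.624% and 1.15% of oligodendrocyte nuclei. Fat3, an atypical cadherin gene (chr9:15910189-16501285, minus strand), had 96 and 155 UMIs, -0.98 (-1.37 to -0.61), in 27.1% and 52.5% of microglia and 2.08% and 4.61% of oligodendrocyte nuclei. Astrocyte nuclei held more Fat3 than microglia nuclei, in 60.0% and 64.3% of them, with a ratio of -0.22. The ratios ran from -1.54 to -1.26 for Nhs, from -1.24 to -1.07 for Sdk1 and from -1.33 to -0.88 for Fat3 over the alternatives. Per excluded nucleus the log2 ratios were -0.41 (-0.91 to 0.09) for Nhs and -0.26 (-0.58 to 0.05) for Sdk1. That of Fat3 was -0.97 (-1.13 to -0.81). The excluded nuclei, which were deeper and carried neuronal transcripts, held more UMIs of each gene per nucleus than the members. Fat3 had 3.12 and 6.11 against 0.482 and 0.981, and Sdk1 had 1.06 and 1.27 against 0.422 and 0.962. For Nhs the values were 0.418 and 0.555 against 0.161 and 0.437.

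The other lower genes also had UMIs in oligodendrocyte and astrocyte nuclei. Csmd1 (73 and 122 UMIs, -1.03) was found in 12.1% and 34.2% of microglia, 16.8% and 22.2% of oligodendrocyte and 56.4% and 61.6% of astrocyte nuclei. The postsynaptic gene Anks1b (47 and 90 UMIs, -1.23) was found in 16.1% and 28.5% of microglia nuclei and in 69.6% and 76.4% of oligodendrocyte nuclei. The adhesion gene Lsamp (-0.81) was found in 30.7% and 38.0% against 53.6% and 60.5%. The shares of Anks1b and Lsamp are below those of oligodendrocyte nuclei, which were deeper, and the source of these transcripts was not tested. Of the 138 and 198 UMIs of Lsamp, up to 48 lay in 1 nucleus in each library. The Csmd1 ratio ran from -1.92 to -0.15 over the alternatives, and Lsamp (0.22 with a marker sum of at least 4) and the synaptic scaffold gene Ppfia2 (-0.86, and 0.54 with that sum) did not keep their sign. The kinase gene Prkg1 (-0.91), Zfp207 (-0.91) and Nisch (-0.78) kept theirs in each alternative. In oligodendrocyte nuclei the ratios were -0.08 for Zfp207, -0.51 for Prkg1 and 0.15 for Nisch. Of the UMIs of microglia nuclei, general neuron markers made up 0.198% and 0.174%, with 149 of the 636 heterozygote UMIs in 1 nucleus, and excitatory neuron markers 0.195% and 0.192%. Inhibitory neuron markers made up 0.0115% and 0.0176%, and oligodendrocyte precursor markers 0.00779% and 0.0287%. The part of such transcripts in these ratios was not tested.

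**Figure D5:**
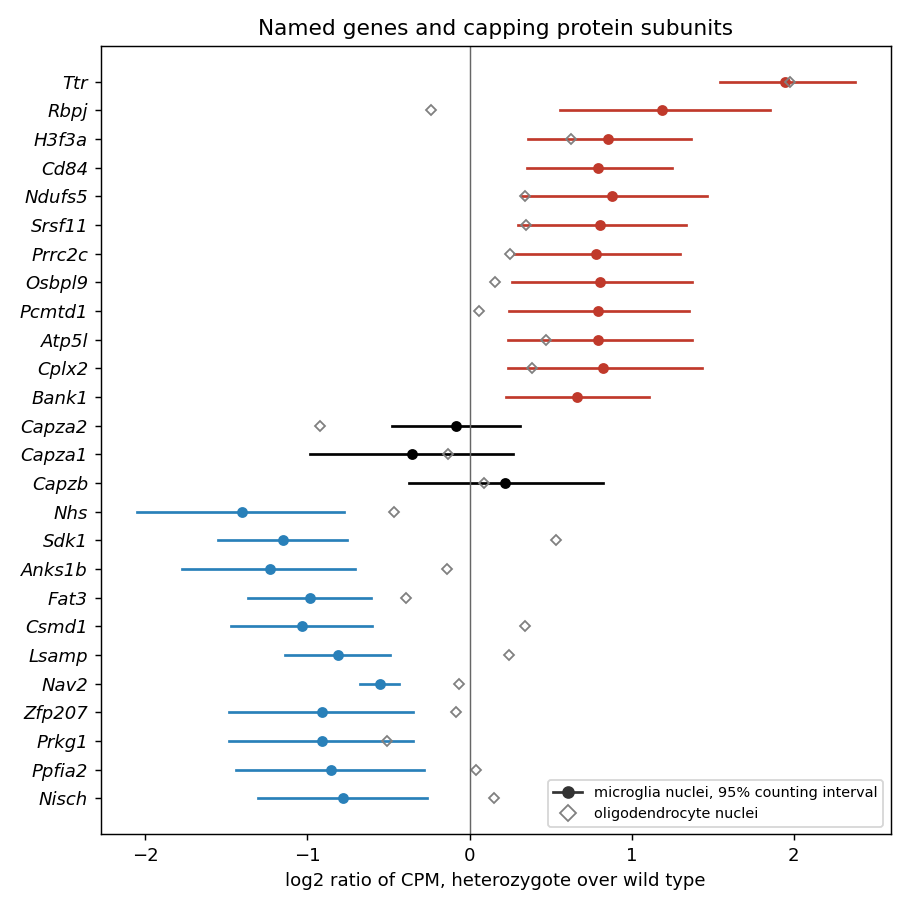
Log2 ratios between the genotypes (CPM, wild type as the base) of the 23 named genes and the 3 capping protein subunits, with exact 95% counting intervals. Circles are microglia nuclei and open diamonds oligodendrocyte nuclei, given where both libraries had UMIs there. Ttr is as high in oligodendrocyte nuclei (1.98) as in microglia nuclei (1.95), while Nav2, Nhs and Sdk1 have diamonds at -0.06, -0.46 and 0.54.

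Of the genes that chose the nuclei, Csf1r had 289 and 191 UMIs (0.30, 0.04 to 0.58) and Ikzf1, a haematopoietic transcription factor gene, 251 and 249 (-0.28, -0.54 to -0.02). The sialic acid receptor gene Siglech (406 and 336 UMIs, -0.02), the lipid phosphatase gene Inpp5d (411 and 313, 0.10) and Ly86 (309 and 281, -0.16) had intervals that hold 0. In the excluded nuclei Csf1r had a log2 ratio per nucleus of -0.04 and Ikzf1 of -0.38. The rule used these genes, so their values are a description.

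Homeostatic surface and secreted genes lay on both sides of 0 between the genotypes. Of the 19 of 27 over the minimum, 12 were higher and 7 lower in the heterozygote, none by 1.5-fold, with a median of 0.07 against -0.01 over all 1253 genes. Below the minimum, Ltc4s (67 and 26 UMIs, 1.07, 0.40 to 1.79) and Olfml3 (50 and 23, 0.83, 0.09 to 1.61) had intervals above 0. The other genes below it had intervals that hold 0. The sum of the list was 1.68% and 1.52% of UMIs (0.15, 0.09 to 0.21). Cx3cr1 had 401 and 315 UMIs (0.06, -0.16 to 0.27) and P2ry12 416 and 298 (0.19, -0.03 to 0.41). Gpr34 (280 and 189 UMIs, 0.27, 0.0025 to 0.55) and Cst3 (1056 and 684, 0.33, 0.19 to 0.47) had intervals above 0. Cst3 was also higher in oligodendrocyte (0.49) and astrocyte nuclei (0.41). Of 11 genes of CSF1 and TGF-beta signalling 7 were higher and 4 lower, with a median of 0.01. The TGF-beta receptor gene Tgfbr1 had 661 and 547 UMIs (-0.02, -0.19 to 0.15) and Tgfbr2 147 and 119 (0.01).

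Lineage transcription factors were 6 higher and 10 lower, with a median of -0.05. Mef2a had 808 and 536 UMIs (0.30, 0.14 to 0.46) and Mef2c 756 and 644 (-0.06, -0.22 to 0.09). Foxn3 (0.27, 0.05 to 0.50) was higher and Zfhx3 (-0.21, -0.39 to -0.02) lower by their intervals, and Zeb2 stood at 0.05. Of the purine receptor and nucleotidase genes 3 passed the minimum: P2ry12, the ATP-hydrolysing ectoenzyme gene Entpd1 (226 and 202 UMIs, -0.13) and the ATP-gated channel gene P2rx7 (75 and 51, 0.26, with 16 UMIs in 1 heterozygote nucleus).

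Complement genes over the minimum had a median of 0.35, with 3 higher and 2 lower, none past 1.5-fold. Below it, C3ar1 (18 and 5 UMIs, 1.55, 0.07 to 3.34) and C5ar1 (16 and 3, 2.12, 0.32 to 4.54) had wide intervals above 0. The other genes below it had intervals that hold 0 or no UMIs. The C1q subunit genes C1qa and C1qb, whose product tags synapses and debris for uptake, had 232 and 146 UMIs (0.37, 0.07 to 0.68) and 176 and 111 (0.37, 0.02 to 0.73). C1qa was found in 60.3% and 55.1% of microglia nuclei and in 3.33% and 0.865% of oligodendrocyte nuclei. In the excluded nuclei C1qa had 1.20 and 0.798 UMIs per nucleus (0.59, 0.24 to 0.96) and C1qb 0.808 and 0.739 (0.13, -0.27 to 0.53). Itgam (145 and 130 UMIs, -0.14) was on the other side.

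Genes of phagocytosis and ITAM signalling were 12 higher and 5 lower, with a median of 0.06. The engulfment genes Elmo1 (952 and 762 UMIs, 0.03, -0.11 to 0.17) and Mertk (538 and 422, 0.06, -0.13 to 0.24) had narrow intervals around 0. The lipid-sensing receptor gene Trem2, with 90 and 51 UMIs, stood at 0.53 (0.01 to 1.05). Lysosomal genes were 9 higher and 3 lower, with a median of 0.08. The cathepsin genes Ctss (275 and 195 UMIs, 0.20) and Ctsd (139 and 132, -0.22) lay on opposite sides with intervals that hold 0, and Laptm5 (92 and 51) stood at 0.56 (0.05 to 1.08).

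Genes of microglial activation were sparse at this depth. Of 29 genes of disease-associated microglia, a state described around amyloid and in degeneration, 5 passed the minimum and 4 were higher: the ferritin gene Fth1 (394 and 258 UMIs, 0.32, 0.09 to 0.55), the tetraspanin gene Cd9 (85 and 47, 0.56, 0.03 to 1.11) and Trem2 among them. Fth1 was also higher in oligodendrocyte (0.39) and astrocyte nuclei (0.42). Apoe was lower (159 and 184 UMIs, -0.50, -0.82 to -0.19), with up to 35 UMIs in 1 wild-type nucleus. It was found in 42.2% and 48.7% of microglia nuclei, below the 79.8% and 73.2% of oligodendrocyte nuclei, which were deeper. The source of the Apoe UMIs was not tested. The 6 border macrophage-like nuclei had Apoe in all 6, at 8549 CPM against 432 in the other microglia nuclei. Cst7 and Ch25h had 0 UMIs in both libraries. Spp1 had 0 and 7 UMIs, all 7 in 1 nucleus.

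Of 39 genes of cytokines and innate sensing 6 passed, 4 higher and 2 lower. The signalling kinase gene Irak2 had 96 and 48 UMIs (0.71, 0.19 to 1.24) and was found in 38.7% and 25.3% of the nuclei. The chemokine gene Ccl4 (6 and 22 UMIs) and the cytokine gene Il1a (13 and 25) were below the minimum, and 20 of the 22 Ccl4 UMIs and 12 of the 25 Il1a UMIs lay in 1 wild-type nucleus each. None of 34 interferon response genes passed: they summed to 304 and 243 UMIs (0.03, -0.22 to 0.28), with Ifit1, Isg15, Irf7 and Rsad2 at 0. The 18 antigen presentation genes summed to 246 and 223 UMIs (-0.15, -0.42 to 0.12), and Cd86, with 98 and 77, stood at 0.05. The 16 proliferation genes summed to 37 and 42 UMIs, with Cdk1, Aurkb, Bub1 and Rrm2 at 0 in both libraries.

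Haematopoietic actin regulators, a broader group than the capping protein genes above, went both ways. Of 52 genes 28 passed the minimum, 13 higher and 15 lower, with a median of -0.03 and a summed level of 1.93% and 1.89% of UMIs. At least 1.5-fold higher was Cfl1, the filament-severing cofilin gene, with 80 and 40 UMIs (0.71, 0.14 to 1.29). Arhgap45 had 146 and 84 (0.50, 0.11 to 0.91) and Tmsb4x 830 and 599 (0.18, 0.02 to 0.33). At least 1.5-fold lower was Arhgap25, a Rac GTPase-activating gene, with 51 and 66 UMIs (-0.67, -1.22 to -0.12). Fyb, the gene of an adaptor that links immune receptors to actin, had 169 and 182 UMIs (-0.40, -0.71 to -0.09) and was found in 47.7% and 68.4% of nuclei. In the excluded nuclei Fyb had 1.12 and 1.08 UMIs per nucleus (0.05, -0.27 to 0.38). The Rap1 effector gene Apbb1ip (0.08) and Dock10 (0.07) had intervals that hold 0.

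Among the remaining groups, ion channel and transporter genes were 3 higher and 6 lower, with a median of -0.01. Slc8a1 (892 and 821 UMIs, -0.17, -0.31 to -0.03) and the endosomal exchanger gene Slc9a9 (402 and 405, -0.30, -0.51 to -0.10) were lower by their intervals, and 44 of the Slc9a9 UMIs lay in 1 heterozygote nucleus. Lipid handling genes were 3 higher and 7 lower (median -0.02), led by Plxdc2 at 1600 and 1354 UMIs (-0.05, -0.16 to 0.05). Nuclear-encoded respiratory chain genes were 14 higher and 6 lower, with a median of 0.13, 2 of them past 1.5-fold: Atp5l (0.79) and Uqcrb (0.83). Ndufs5 (0.88), named above, is not on that list. Their sum was 0.750% and 0.675% of UMIs in microglia nuclei, and 0.607% and 0.533% in oligodendrocyte nuclei. Mitochondrially encoded genes were 1 higher and 4 lower (median -0.31), and their share was 0.166% and 0.188% in microglia and 0.131% and 0.170% in oligodendrocyte nuclei. Of 25 immediate early and stress genes 2 passed the minimum, both lower: Hsp90aa1 (144 and 140 UMIs, -0.25) and Hspa8 (133 and 130, -0.26), chaperone genes with intervals that hold 0.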

How the data were processed

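Single-nucleus libraries of mouse hippocampus, 1 per genotype, were read as raw UMI counts per gene and barcode. The deposited counts cover 32285 genes, per the file headers. Cell Ranger 7.1.0 and mm10 are named per the submitters' processing notes. Per the labels' protocols, nuclei were released by Dounce homogenisation, cleaned by density centrifugation and run with the 10x 3′ v3 chemistry. Whether reads in introns were counted: not given in the sources used here. Gene coordinates come from GENCODE M21 (GRCm38), where 32235 identifiers were found, and promoter sequences from RefSeq (GRCm38.p6).

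The members and all gene lists were chosen with earlier results of these data known. UMIs were summed per library over members. CPM ratios carry exact conditional binomial intervals, shares Clopper-Pearson intervals, both at 95%. Genotype ratios cover genes with 100 UMIs or more in the members of both libraries together, and contrasts with other nuclei those with 50 or more in each. Named are the 25 genes highest against other nuclei, 12 per genotype direction by the interval bound nearest to 0, 12 by dispersion, and per list (19 lists of genes, 17 of markers) the 4 most abundant members plus any whose interval leaves out 0, of which examples are given. Mitochondrial, Xist, Tsix and Y-linked genes stayed out of the rankings, and 2 gene models among the higher genes and 4 against other nuclei were passed over. No doublets were removed; removal of the highest Scrublet scores at 0.8% per 1000 barcodes is an alternative. Members were sub-clustered with Leiden (1000 variable genes, 20 components, 15 neighbours, resolution 0.5). Python 3.11.15, numpy 2.4.6, scipy 1.17.1, scanpy 1.11.5, leidenalg 0.10.2 and matplotlib 3.10.9 were used. The ratio step was checked on simulated counts with known folds. Clec7a, Mx1 and Ddit3 were not found under a single symbol and not analysed here. Results for a few named genes are not reported here.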

Additional observations from a re-analysis of the deposited data

How the results depend on the processing

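The share ratio of microglia nuclei stayed within the counting interval of its reported value in 10 alternatives, and the count of genes at least 4-fold above other nuclei (283) ran from 225 to 287 over 8. The counts of genes at least 1.5-fold higher (36) and lower (31) in the heterozygote moved most with the count minimum: 158 and 133 at 50 UMIs, 1 and 7 at 200, and 2526 and 2436 with none. With nuclei thinned to 1000 UMIs they were 12 and 10, where fewer genes pass the minimum. The lower count was 19 with at least 1000 genes per nucleus and 17 with strict exclusion (Rbfox3, Mobp, Mog, Gja1 and Aqp4 all at 0). Of 105 genes followed over 11 settings, 26 changed sign in at least 1, among them Kcnip4 (-0.65 to 1.09) and Meg3 (-0.51 to 0.79). The 3 of them whose reported interval leaves out 0 were Lsamp (0.22) and Ppfia2 (0.54) with a marker sum of at least 4, Ppfia2 (0.66) with strict exclusion, and Nrxn3 without the highest doublet scores (-0.25) or without nuclei of more than 3000 UMIs (-0.14). List medians that changed sign included phagocytosis (-0.0257, marker sum of at least 4), ion channels (0.0110, 0.0357 and 0.00403 with at least 1000 genes, strict exclusion and no nuclei over 3000 UMIs) and the respiratory chain (-0.000355, thinned). The cause was not tested. Leiden resolution 1.0 gave 9 sub-clusters, against 3. The settings without nuclei of border macrophage genes or over 3000 UMIs, and the alternatives for the contrast with other nuclei, were chosen after seeing the data. No paired analysis was possible because each genotype has 1 library. Depth limits the genotype contrast to abundant genes: at the 93 and 62 UMIs of Cd2ap the interval ran from -0.19 to 0.78, and the spread between mice is unknown.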
